A study of Arabidopsis thaliana with 18 samples.

Results

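Root tips of Arabidopsis thaliana seedlings 6 h after the cut, under mock treatment, were compared with mock uncut tips. The comparison rests on 2 libraries of mock cut tips and 3 libraries of mock uncut tips, 5 of the 18 libraries in the study, and on the 22093 loci of the count table. Seedlings were 7 days old, and the cut fell 120 µm above the quiescent centre (QC), per the labels. The labels give no time for mock uncut tips, so hours elapsed and cutting cannot be told apart. The other groups used below are mock cut tips at 3 h (3 libraries), L-Kyn cut tips (3 libraries) and L-Kyn uncut tips (2 libraries) at 6 h, where L-Kyn is L-kynurenine, an inhibitor of auxin synthesis, at 100 µM. All groups are root meristems of seedlings whose genotype the labels do not give. Whether replicates were collected from different seedlings is not stated, so a p-value here covers the variation among libraries, and that variation may be technical.

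A root tip that loses its root cap and stem cell niche can rebuild both from the cells left in the stump. The QC is a small group of slowly dividing cells around which the stem cells lie, and it is held in place by a maximum of auxin, by PLETHORA (PLT) transcription factors and by the SHORTROOT and SCARECROW pair. Auxin is made from tryptophan by TAA1 and the YUCCA (YUC) enzymes and moved by PIN exporters and AUX/LAX importers. Wounding also sets off touch, cold, dehydration, detoxification and cell wall genes.

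Reads on genes numbered 1565197 and 2279217 in mock cut 6 h replicates 1 and 2, and 3223903, 2198427 and 3082231 in mock uncut replicates 1, 2 and 3. Over the genes tested, Spearman's correlation was 0.971 between the cut libraries. It was 0.899 to 0.921 between a cut library and mock uncut replicate 1 or 2, and 0.843 to 0.846 between a cut library and mock uncut replicate 3. Mock uncut replicate 3 had correlations of 0.857 and 0.808 with the other uncut libraries, which had 0.939 with each other. In the table's column order, mock uncut replicates 1 and 2 stand with the 6 h libraries among the first 9 columns (the first set), and mock uncut replicate 3 stands with the 3 h libraries among the last 9 (the second set). The cut tips were therefore set against replicates 1 and 2 in a fit of the 9 libraries of the first set, and each gene was also checked against all 3 uncut libraries. The cut libraries themselves differed in markers of the endodermis, the layer that forms the Casparian strip. CASP1 had 0 and 39.7 CPM (read counts relative to library size) in the cut libraries and 0, 0.462 and 0 CPM in the uncut libraries. CASP2 had 0 and 20.3 CPM in the cut libraries and 0.607, 0 and 0 CPM in the uncut libraries, and ESB1 had 3.08 and 44.3 CPM against 5.16, 1.38 and 2.90 CPM. The 6 endodermis and cortex markers in the table summed to 9.9 and 113.4 CPM in the cut libraries and to 12.4, 12 and 15.5 CPM in the uncut libraries, with FAR4 at 0 in all 5. The high values are in mock cut 6 h replicate 2 alone, and the part of this in the results was not tested. Markers of green tissue were low and overlapped, with a sum over 10 genes of 120.1 and 288.6 CPM in cut tips and of 278.7, 107.5 and 21.9 CPM in uncut tips.

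Against the 2 uncut libraries of the first set, 74 genes were higher and 143 lower in mock cut tips at 6 h, of 14764 tested (edgeR's quasi-likelihood test, Benjamini-Hochberg adjusted p under 0.05, 1.47% of the genes). Mock uncut replicate 3 had no part in these calls. Both cut libraries lay beyond all 3 uncut libraries in 69 of the 74 higher and 127 of the 143 lower genes. The calls favour genes that lie beyond replicates 1 and 2, so the shares over all genes, 17.6% (higher) and 15.3% (lower), are given as a description and nothing is read from the difference. Against all 3 uncut libraries in a fit of the 18 libraries, edgeR called 0 of 16354 genes (0%), with 1594 at an unadjusted p under 0.05 and a smallest adjusted p of 0.166. DESeq2 called 34 genes there (0.208%), 16 higher (0.0978%) and 18 lower (0.11%). With L-Kyn cut 3 h replicate 2 left out of the same edgeR fit, the count was 55 genes. The count of 217 rested on each of the 4 mock libraries of the first set. Leaving out mock cut 6 h replicate 1 gave 31 genes, and leaving out replicate 2 of that group gave 25. Leaving out mock uncut replicate 1 gave 53 genes, and leaving out mock uncut replicate 2 gave 67. A core of 16 genes, 9 higher and 7 lower, was called whichever of these 4 libraries was left out.

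**Figure D1:**
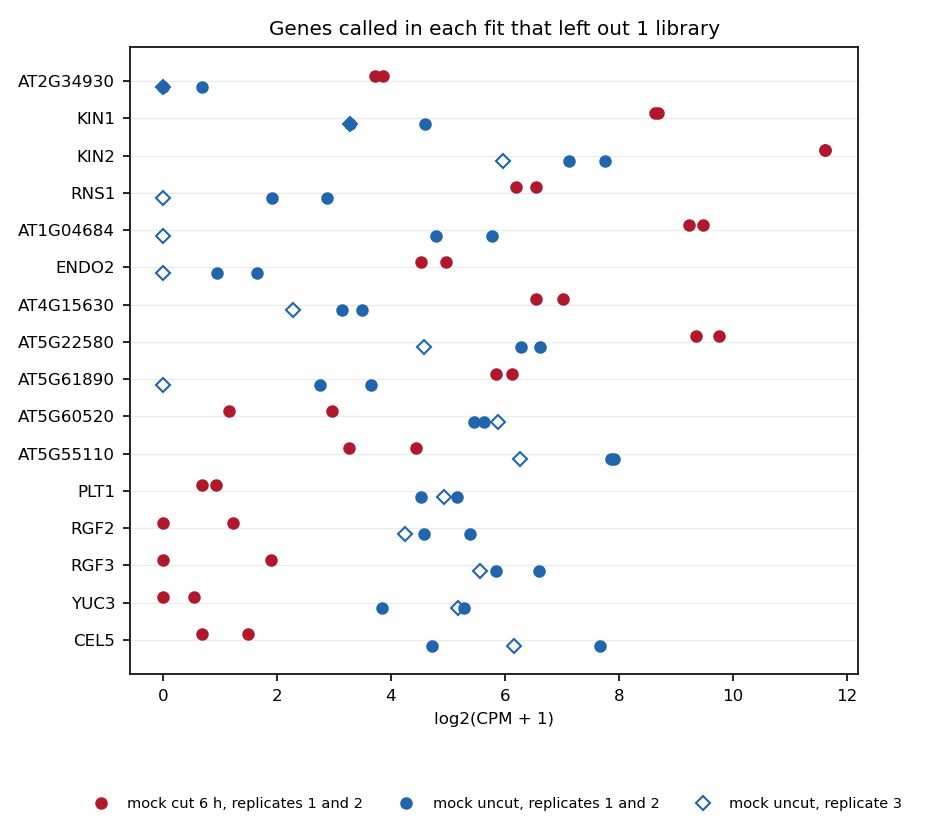
Level of the 16 genes called in each of the 4 fits that left out 1 mock library of the first set, as log2(CPM + 1) on the horizontal axis, 1 gene per row with the largest log2 fold change at the top. Red points are the 2 mock cut 6 h libraries, filled blue points mock uncut replicates 1 and 2, and open diamonds mock uncut replicate 3. In the upper 9 rows the red points lie to the right of all 3 uncut libraries, and in the lower 7 rows to the left.

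KIN2 and KIN1, neighbouring genes of small cold- and abscisic acid-induced proteins, had the smallest adjusted p of all genes in the first set. KIN2 (AT5G15970) had 3145 and 3159 CPM in mock cut tips and 216, 138 and 61.5 CPM in mock uncut tips. Its level in cut tips placed it among the 10 genes with the most counts. KIN1 (AT5G15960) had 398 and 410 CPM in cut tips and 23.4, 8.77 and 8.70 CPM in uncut tips. The groups lie far apart for both genes, and the cut libraries are nearly equal. In the first set KIN2 was higher by a log2 fold change of 4.12 ± 0.36 (SE), or 17.4-fold, with an edgeR adjusted p of 4.19e-05, and KIN1 by 4.58 ± 0.48 (SE), or 23.9-fold, with an edgeR adjusted p of 0.00026. With 1 mock library of the first set left out, the log2 fold change of KIN1 was 4.08 to 5.51, highest without mock uncut replicate 1. That of KIN2 was 3.83 to 4.5. Against all 3 uncut libraries the log2 fold changes were 4.50 ± 0.78 and 4.87 ± 0.97 (SE), and DESeq2 called both (adjusted p = 0.00394 and 0.0212). The coding sequences of the 2 genes, 201 bases each, are identical at 95% of positions in the reference, so reads may be split between them and their separate values are uncertain.

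The windows before both genes are printed because KIN1 and KIN2 rose together. They are the 300 bases before the annotated start of each gene on the plus strand, read from the RefSeq TAIR10.1 assembly at chr5:5209417-5209716 for KIN1 and chr5:5211419-5211718 for KIN2. Capitals mark ACGTG on either strand, the core of the abscisic acid response element. The other motif searched on both strands, CCGAC, the core of the cold and dehydration element, is not in these letters of either window.
KIN1: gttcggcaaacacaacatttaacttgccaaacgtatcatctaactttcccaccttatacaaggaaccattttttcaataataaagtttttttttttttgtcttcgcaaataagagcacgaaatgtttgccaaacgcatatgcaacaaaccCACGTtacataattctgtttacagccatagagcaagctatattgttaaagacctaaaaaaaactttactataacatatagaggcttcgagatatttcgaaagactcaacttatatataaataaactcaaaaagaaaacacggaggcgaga
KIN2: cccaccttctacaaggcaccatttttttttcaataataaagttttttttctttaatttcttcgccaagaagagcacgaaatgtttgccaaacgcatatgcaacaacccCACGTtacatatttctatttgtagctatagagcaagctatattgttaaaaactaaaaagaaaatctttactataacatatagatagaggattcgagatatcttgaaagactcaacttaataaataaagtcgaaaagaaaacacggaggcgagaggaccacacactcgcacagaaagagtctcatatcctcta
The match lies 150 to 146 bases before the start of KIN1 and 192 to 188 bases before that of KIN2, on the strand opposite to the gene in both. The longest identical stretch of the 2 windows is 37 bases. Of 27443 windows of this length before protein-coding genes, 25.6% hold ACGTG and 13.9% hold CCGAC on either strand. Among genes with a window, ACGTG was in 25 of the 73 called higher (34.2%) and in 33 of the 140 called lower (23.6%). A match is a description of the letters and not a binding site.

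KIN1 and KIN2 belong to the list of cold, dehydration and abscisic acid response genes. Of its 14 genes tested in the first set (21 listed), 4 were higher, these being KIN1, KIN2, LTI30 and HVA22D, and 0 were lower. With KIN1 and KIN2 included, 9 of the 14 had a log2 fold change above 0 and the list's median was 0.42, against -0.01 for all genes. Background for these counts, and for the first-set counts of every list and group below, is 0.501% of genes higher and 0.969% lower. LTI30, a dehydrin, had 262 and 211 CPM in cut tips and 65.5, 50.3 and 17.7 CPM in uncut tips (log2 fold change 2.00 ± 0.36 SE, edgeR adjusted p = 0.0152). HVA22D, an abscisic acid-induced membrane protein, had 98.5 and 135 CPM in cut tips and 40.3, 41.5 and 39.0 CPM in uncut tips (1.48 ± 0.32 SE, edgeR adjusted p = 0.0316). Neither LTI30 nor HVA22D kept its call when any 1 of the 4 libraries was left out, with adjusted p of 0.0639 to 0.165 for LTI30 and 0.113 to 0.378 for HVA22D. The dehydrins COR47, ERD10 and ERD14 overlapped between groups. ERD10 had 67.7 and 97.1 CPM in cut tips and 176, 114 and 69.3 CPM in uncut tips. AT4G38410, annotated as a dehydrin but not on the list, had 106 and 131 CPM in cut tips and 38.2, 21.2 and 9.99 CPM in uncut tips. It was called higher in the first set (edgeR adjusted p = 0.0264) and by DESeq2 against all 3 uncut libraries (adjusted p = 0.0485). Like LTI30 and HVA22D, AT4G38410 lost its first-set call when any 1 of the 4 libraries was left out. Its log2 fold change in the first set, 1.95, was 1.6 to 2.47 in those fits.

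A pair of nucleases linked to senescence, phosphate starvation and cell death rose with KIN1 and KIN2. RNS1, a secreted S-like ribonuclease, had 72.7 and 93.0 CPM in cut tips and 6.37, 2.77 and 0 CPM in uncut tips (a log2 fold change of 4.07 ± 0.48 SE and 16.8-fold, edgeR adjusted p = 0.000408). ENDO2, an S1-type endonuclease, had 30.2 and 22.1 CPM in cut tips and 2.12, 0.923 and 0 CPM in uncut tips (3.94 ± 0.57 SE and 15.3-fold, edgeR adjusted p = 0.00264). Both were called without each library in turn. In these fits the log2 fold change was 3.66 to 4.87 for RNS1 and 3.56 to 4.74 for ENDO2, highest without mock uncut replicate 1. RNS2, the vacuolar ribonuclease, had 67.7 and 62.3 CPM in cut tips and 25.5, 28.1 and 48.0 CPM in uncut tips and did not pass (adjusted p = 0.11). BFN1, a nuclease of dying cells, and the metacaspase gene MC9 were near 0 in all 5 libraries, at no more than 1.35 CPM. SCPL48, a carboxypeptidase of xylem and root cap cell death, had 1.85 and 2.26 CPM in cut tips and 15.2, 6.46 and 7.73 CPM in uncut tips. Of the 4 genes of this list tested (8 listed), 2 were higher and 0 lower, with a median log2 fold change of 2.59.

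The rest of the higher core has no symbol in the reference and was singled out after its values were seen. AT1G04684, a locus with no description in the reference, had 716 and 602 CPM in cut tips and 54.0, 26.8 and 0 CPM in uncut tips. AT5G22580, annotated as a stress-responsive barrel-domain protein, had 654 and 864 CPM in cut tips and 77.3, 96.9 and 22.9 CPM in uncut tips. AT5G61890, annotated as an Integrase-type DNA-binding protein, had 69.0 and 56.5 CPM in cut tips and 5.76, 11.5 and 0 CPM in uncut tips. AT4G15630, of an uncharacterised membrane protein family (UPF0497), had 129 and 92.1 CPM in cut tips and 10.3, 7.84 and 3.87 CPM in uncut tips. AT2G34930, annotated as a leucine-rich repeat protein of a disease resistance family, had 13.5 and 12.2 CPM in cut tips and 0.607, 0 and 0 CPM in uncut tips. In each of these 5 genes both cut libraries lie above all 3 uncut libraries. Their log2 fold changes in the first set were 3.98 ± 0.47, 3.09 ± 0.33, 2.86 ± 0.38, 3.55 ± 0.42 and 4.95 ± 0.80 (SE, in the order named).

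Root cap genes were among those that fell. CEL5, a cellulase of shedding root cap cells, had 0.616 and 1.81 CPM in cut tips and 204, 25.4 and 70.6 CPM in uncut tips. That is 5 counts in both cut libraries against 945 in the 3 uncut libraries, a level 84.7-fold lower per library size (95% counting interval 36.1 to 261). SMB and BRN1, NAC transcription factors that drive root cap maturation, also fell. SMB had 0 and 1.35 CPM in cut tips and 11.8, 8.31 and 12.2 CPM in uncut tips, 14.2-fold lower (4.71 to 70.0). BRN1 had 0.616 and 1.35 CPM in cut tips and 24.6, 4.15 and 13.2 CPM in uncut tips, 14.7-fold lower (5.6 to 54.6). The edgeR adjusted p in the first set was 0.00264 for CEL5, 0.0201 for SMB and 0.0384 for BRN1. CEL5 was called in every fit that left out 1 library, while SMB and BRN1 kept the call only without mock uncut replicate 2. The size of these falls rested on single libraries. The fitted log2 fold change of CEL5, -6.46 in the first set, was -4.25 with mock uncut replicate 1 left out and -7.44 with mock cut 6 h replicate 2 left out. The value of BRN1, -3.82, was -1.96 with mock uncut replicate 1 left out and -4.54 with mock uncut replicate 2 left out. The value of SMB, -3.68, was -2.91 with mock cut 6 h replicate 1 left out and -7.75 with replicate 2 of that group left out, where the cut library left has 0 counts and the fitted value is no bound. FEZ, which sets root cap stem cell divisions, had 0 and 0.452 CPM in cut tips and 4.85, 2.31 and 9.99 CPM in uncut tips and did not pass (adjusted p = 0.11), nor did BRN2, CEL3, ARF10 and ARF16. CEL3, a cellulase like CEL5, had 4.92 and 2.26 CPM in cut tips and 2.73, 0.923 and 0 CPM in uncut tips (log2 fold change 0.79). ARF10 and ARF16, auxin response factors, had log2 fold changes of 0.02 and 0.6. Of 8 root cap genes, all tested, 3 were lower and 0 higher, 5 had a log2 fold change below 0 and 3 above 0, with a median log2 fold change of -2.79 in the first set and -2.67 against all 3 uncut libraries. Of all genes tested in the first set, 0.969% were lower and 0.501% higher. The summed level of the 8 root cap genes was 24.6 and 25.3 CPM in cut tips and 286.2, 55.4 and 129.2 CPM in uncut tips. In these bulk samples, fewer cells of a type and less RNA per cell cannot be told apart, and whether tissue below the cut was collected is not stated.

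**Figure D2:**
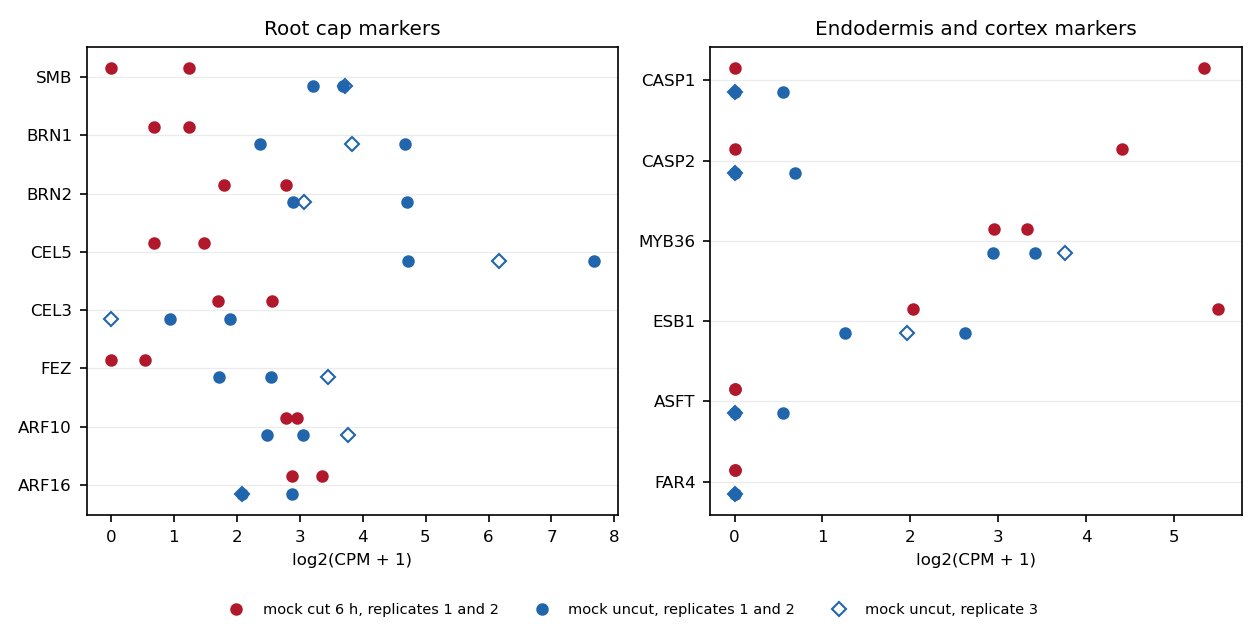
Levels of the root cap markers (left) and the endodermis and cortex markers (right) as log2(CPM + 1), with mock cut 6 h libraries in red above mock uncut libraries in blue within each row (open diamonds, mock uncut replicate 3). The red points of SMB, BRN1, CEL5 and FEZ lie left of all uncut libraries, and CASP1, CASP2 and ESB1 are high in 1 of the 2 cut libraries only.

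In the stem cell niche list, 4 of 15 genes tested (17 listed) were lower and 0 higher, beside 0.969% and 0.501% of all genes. The list's median log2 fold change was -0.29. PLT1, a master regulator of the niche, had 0.616 and 0.903 CPM in cut tips and 34.9, 22.1 and 29.6 CPM in uncut tips. Its ratio of 3 counts to 255 gives a level 38.1-fold lower (12.9 to 186), with edgeR adjusted p = 0.000263. RGF3 and RGF2, peptide hormones of the root tip that sustain PLT proteins, had no count in mock cut 6 h replicate 1. RGF3 had 0 and 2.71 CPM in cut tips and 96.4, 56.3 and 46.1 CPM in uncut tips, 43.5-fold lower (19.9 to 119, edgeR adjusted p = 0.000263). RGF2 had 0 and 1.35 CPM in cut tips and 40.9, 23.1 and 18 CPM in uncut tips, 36.0-fold lower (12.2 to 176, edgeR adjusted p = 0.00212). PLT1, RGF2 and RGF3 belong to the core. With mock cut 6 h replicate 1 left out, RGF3 had a fitted log2 fold change of -4.84, against -5.64 with all libraries, and RGF2 one of -4.57, against -5.33. Without mock cut 6 h replicate 2 they were -10.66 and -9.41, where the cut library left has 0 counts and the fitted values are no bounds. AIL5, a PLT relative also called lower, rested on 1 count in cut tips against 30 in uncut tips, had 0 CPM in mock uncut replicate 3 and lost its call in each fit that left out 1 library.

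The other PLT genes and the radial pattern genes did not pass the test. PLT2 had 4.92 and 4.06 CPM in cut tips and 14.9, 13.8 and 9.34 CPM in uncut tips (log2 fold change -1.71 ± 0.47 SE, edgeR adjusted p = 0.0708), without overlap of the groups. BBM, another PLT family member, had 6.77 and 5.87 CPM in cut tips and 22.1, 15.2 and 10.6 CPM in uncut tips (adjusted p = 0.061). PLT3 had 78.2 and 77.7 CPM in cut tips and 63.1, 47.5 and 43.8 CPM in uncut tips (adjusted p = 0.42). SHR had 41.2 and 40.6 CPM in cut tips and 50.6, 47.5 and 44.1 CPM in uncut tips. SCR had 28.9 and 22.6 CPM in cut tips and 46.1, 14.8 and 55.1 CPM in uncut tips. The log2 fold changes of SHR and SCR were -0.29 ± 0.31 and -0.30 ± 0.43 (SE). WOX5, the homeobox gene that marks the QC, had 6.16 and 4.52 CPM in cut tips and 0.607, 0.462 and 2.90 CPM in uncut tips. Both cut libraries lie above all 3 uncut libraries, but with 20 counts against 12 in total WOX5 did not pass (log2 fold change 3.13 ± 1.02 SE, edgeR adjusted p = 0.118).

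Among auxin synthesis genes, YUC3 fell. It had 0 and 0.452 CPM in cut tips and 37.9, 13.4 and 35.1 CPM in uncut tips, 1 count against 263 and a ratio of 118 (21.0 to 4671), with edgeR adjusted p = 0.000995, and it belongs to the core. Its fitted log2 fold change, -6.44, was -5.45 with mock uncut replicate 1 left out. With mock cut 6 h replicate 2 left out, no count is left in cut tips and the fitted value of -9.1 is no bound. TAA1, which acts a step before the YUC enzymes, had 10.5 and 11.7 CPM in cut tips and 9.70, 16.6 and 5.48 CPM in uncut tips, and the groups overlap (log2 fold change -0.25 ± 0.43 SE). YUC9 had 0.616 and 2.26 CPM in cut tips and 3.64, 0.923 and 7.73 CPM in uncut tips, which also overlap. YUC8 had 4.31 and 2.26 CPM in cut tips and 4.85, 2.77 and 2.25 CPM in uncut tips. Of 4 genes of the list tested in the first set (14 listed), 1 was lower and 0 higher.

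LAX2 and PIN4 were among the auxin transport genes that fell. LAX2, an importer, had 17.2 and 17.6 CPM in cut tips and 62.2, 77.5 and 64.1 CPM in uncut tips (log2 fold change -2.03 ± 0.32 SE and 4.08-fold lower, edgeR adjusted p = 0.00605). PIN4, an exporter of the stem cell niche, had 11.7 and 13.1 CPM in cut tips and 36.4, 32.8 and 25.1 CPM in uncut tips (-1.51 ± 0.35 SE, edgeR adjusted p = 0.042). For both genes the cut libraries lie below every uncut library. LAX2 kept its call when either uncut library was left out and lost it when either cut library was left out (adjusted p up to 0.185), and PIN4 lost its call in all 4 fits. AUX1, the main importer of the root cap and epidermis, had 81.9 and 81.3 CPM in cut tips and 50.03, 51.2 and 44.5 CPM in uncut tips (adjusted p = 0.24). Of 12 transport genes tested, 3 were lower and 0 higher, and the median log2 fold change was -0.05.

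**Figure D3:**
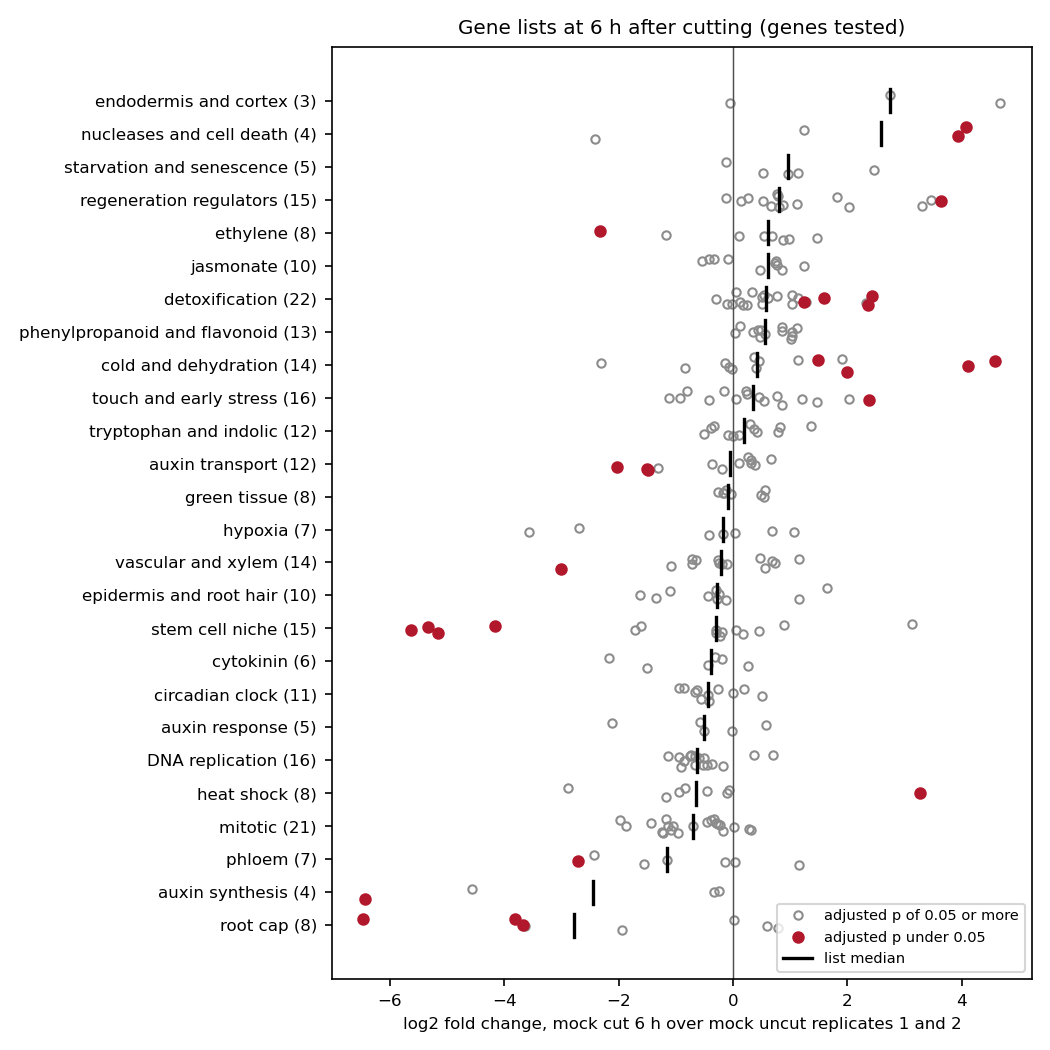
Log2 fold change of each gene tested, mock cut 6 h over mock uncut replicates 1 and 2, by gene list on the vertical axis with the number of genes tested in brackets. Red points passed an adjusted p of 0.05, open grey points did not, and black bars are list medians. The root cap list has the lowest median (-2.79), and the 4 called genes of the cold and dehydration list all lie right of 0.

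Of the genes linked to regeneration, wounding and tissue reunion, 1 of 15 tested (20 listed) was higher and 0 lower, with a median log2 fold change of 0.80 and 14 of the 15 above 0, against 49.3% of all genes. XTH20, a xyloglucan enzyme of cut and grafted tissue, had 19.7 and 9.03 CPM in cut tips and 1.52, 0.462 and 0 CPM in uncut tips (log2 fold change 3.63 ± 0.68 SE, edgeR adjusted p = 0.0201). Its call held without mock cut 6 h replicate 2 and was lost when any other library was left out, with adjusted p up to 0.294. Its log2 fold change was 2.99 with mock cut 6 h replicate 1 left out and 4.79 with mock uncut replicate 1 left out. ERF115, an ethylene response factor of stem cell replacement, had 2.46 and 5.42 CPM in cut tips and 0.607, 0 and 1.93 CPM in uncut tips. PAT1, its GRAS-domain partner, had 16.6 and 13.6 CPM in cut tips and 7.88, 9.23 and 12.9 CPM in uncut tips. WIND1, a wound-induced factor of callus formation, had 62.2 and 56.9 CPM in cut tips and 32.5, 34.6 and 57.7 CPM in uncut tips, so that the groups overlap. ANAC096, a NAC factor of tissue reunion, had 8.00 and 4.06 CPM in cut tips and 2.12, 0.923 and 2.58 CPM in uncut tips. None of ERF115, PAT1, WIND1 and ANAC096 passed, with edgeR adjusted p of 0.11, 0.297, 0.255 and 0.192. ANAC071, its relative, was too low to be tested.

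Detoxification genes, mostly glutathione transferases (GSTs), gave 4 higher and 0 lower of 22 tested (26 listed), beside 0.501% and 0.969% of all genes. Their median log2 fold change was 0.58. GSTU24 had 257 and 241 CPM in cut tips and 118, 87.2 and 96.3 CPM in uncut tips (2.38-fold, edgeR adjusted p = 0.0463), and DESeq2 called it against all 3 uncut libraries (adjusted p = 0.0195). GSTF2 had 109 and 115 CPM in cut tips and 26.7, 15.2 and 4.51 CPM in uncut tips (5.16-fold, edgeR adjusted p = 0.0409). GSTF6 had 51.1 and 47.4 CPM in cut tips and 13.7, 3.23 and 11.6 CPM in uncut tips (5.4-fold, edgeR adjusted p = 0.0481). GSTU5 had 84.3 and 62.8 CPM in cut tips and 22.7, 24.9 and 0.322 CPM in uncut tips (3.02-fold, edgeR adjusted p = 0.0316). Against all 3 uncut libraries 23 of 23 members had a log2 fold change above 0, and mock uncut replicate 3 had the lowest summed level, 2856.2 CPM against 4659.4 and 5076.9 CPM in the other uncut libraries and 7121.8 and 6597.5 CPM in cut tips. All 4 calls were lost in each fit that left out 1 library, and the log2 fold change of GSTF6, 2.43, was 1.82 without mock uncut replicate 2 and 3.9 without mock uncut replicate 1. Reads may be split between GST genes of like sequence, which was not checked, so their separate counts may be uncertain. OPR1, an oxophytodienoate reductase-like gene induced with GSTs, had 626 and 477 CPM in cut tips and 250, 196 and 186 CPM in uncut tips, and was called by DESeq2 against all 3 (adjusted p = 0.0212) but not by edgeR in the first set (adjusted p = 0.0593).

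Cell wall genes were called in both directions. EXPA4, an expansin, had 81.3 and 75.0 CPM in cut tips and 22.1, 14.3 and 10.9 CPM in uncut tips (log2 fold change 2.05 ± 0.34 SE, edgeR adjusted p = 0.00812). XTH4, a xyloglucan endotransglucosylase, had 61.6 and 63.7 CPM in cut tips and 21.5, 21.7 and 21.9 CPM in uncut tips (1.5 ± 0.34 SE, edgeR adjusted p = 0.0403). GXMT1, which methylates xylan, had 39.4 and 42.0 CPM in cut tips and 12.7, 9.69 and 5.80 CPM in uncut tips (1.81 ± 0.39 SE, edgeR adjusted p = 0.0327). DESeq2 also called these 3 genes against all 3 uncut libraries. EXPA15 went the other way, with 13.5 and 37.5 CPM in cut tips and 99.2, 116 and 120 CPM in uncut tips (-2.09, edgeR adjusted p = 0.0366). EXPA4 kept its call without mock uncut replicate 1 and lost it without any of the other 3 libraries (adjusted p up to 0.0931). XTH4, GXMT1 and EXPA15 lost theirs in all 4 fits, with adjusted p up to 0.312 for XTH4 and 0.262 for GXMT1. Among 101 genes annotated as xyloglucan, expansin or pectin genes, a group put together after the values were seen, 7 were higher and 2 lower. Of all genes tested, 0.501% were higher and 0.969% lower.

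The touch, heat shock and ethylene lists gave 1 call each, and other signalling and defence genes were also called, not all of them named here. TCH3, a touch-induced calmodulin-like protein, had 145 and 117 CPM in cut tips and 31.5, 17.1 and 2.58 CPM in uncut tips (log2 fold change 2.38 ± 0.44 SE, edgeR adjusted p = 0.0167). It was the 1 higher gene of 16 tested in the touch and early stress list, and it kept the call only without mock uncut replicate 1. PSK4, a precursor of the growth peptide phytosulfokine, had 15.4 and 8.58 CPM in cut tips and 0.607, 0.462 and 0 CPM in uncut tips (4.29 ± 0.73 SE, edgeR adjusted p = 0.00855). TI1, a trypsin inhibitor of the defensin type, had 106 and 84.5 CPM in cut tips and 13.0, 18.9 and 3.54 CPM in uncut tips (2.55 ± 0.37 SE, edgeR adjusted p = 0.00264). HSP17.6II, a small heat shock protein, had 10.5 and 19.0 CPM in cut tips and 1.52, 1.38 and 0 CPM in uncut tips (3.28 ± 0.56 SE, edgeR adjusted p = 0.00856), while 7 of the 8 heat shock genes tested had a log2 fold change below 0. Outside the heat shock list, HSP60 and MTHSC70-2 were called lower in the first set. AAP1, an amino acid permease, had 14.8 and 19.0 CPM in cut tips and 4.55, 0.923 and 0 CPM in uncut tips (edgeR adjusted p = 0.042). ACO4, an enzyme of ethylene synthesis, was lower, with 4.92 and 4.97 CPM in cut tips and 32.5, 15.7 and 9.99 CPM in uncut tips (-2.32 ± 0.51 SE, edgeR adjusted p = 0.0343). TI1 lost its call only without mock uncut replicate 1 (adjusted p = 0.0523), while PSK4 kept it only without mock cut 6 h replicate 2 and HSP17.6II only without mock cut 6 h replicate 1. AAP1 lost its call in all 4 fits, and ACO4 in 3 of the 4 (adjusted p up to 0.336 and 0.338). Without mock uncut replicate 1 the log2 fold change of AAP1 was 4.12, and without mock uncut replicate 2 it was 1.86. That of ACO4 was -1.66 without mock uncut replicate 1. No gene of the jasmonate list (10 tested) or the cytokinin list (6 tested) passed.

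Vascular and nuclear genes were also among the lower ones. ACL5, a thermospermine synthase of xylem precursors, had 1.85 and 3.16 CPM in cut tips and 26.7, 13.8 and 18.7 CPM in uncut tips (log2 fold change -3.00 ± 0.54 SE, edgeR adjusted p = 0.0141), and DESeq2 called it against all 3 (adjusted p = 0.012). CALS7, the callose synthase of phloem sieve plates, had 1.85 and 2.26 CPM in cut tips and 14.2, 12.9 and 11.6 CPM in uncut tips (-2.72 ± 0.56 SE, edgeR adjusted p = 0.0264). LINC3, a lamina-like protein of the nucleus, had 83.1 and 83.1 CPM in cut tips and 282, 260 and 145 CPM in uncut tips (-1.74 ± 0.34 SE, edgeR adjusted p = 0.0218). CHR38, a chromatin remodeller of DNA methylation, had 3.08 and 4.06 CPM in cut tips and 29.1, 28.6 and 12.2 CPM in uncut tips. ASPGB1, an asparaginase, had 4.92 and 10.4 CPM in cut tips and 44.0, 68.8 and 29.0 CPM in uncut tips. With 1 library left out, ACL5 kept its call only without mock uncut replicate 2 and ASPGB1 only without mock uncut replicate 1, and CALS7, LINC3 and CHR38 lost theirs in all 4 fits (adjusted p up to 0.312, 0.284 and 0.292). With mock uncut replicate 1 left out, the log2 fold change of ACL5 was -2.41. ASPGB1, at -2.86 with all libraries, had -3.5 to -2.47 with 1 library left out, and -3.5 was without mock cut 6 h replicate 2. Of 43 genes annotated to rRNA processing or the nucleolus, grouped after the values were seen, 7 were lower and 0 higher, beside 0.969% of all genes lower. The words that define this group include some from product names of genes called lower, so its values partly follow from that choice. The median log2 fold change of the group was -0.95, beside -0.01 for all genes. Of 53 splicing genes, grouped likewise, 5 were lower (median -0.62), and of 286 cytosolic ribosomal protein genes 2 were lower (median 0.03). The last of the core, AT5G55110, annotated as a Stigma-specific Stig1 protein, had 8.62 and 20.8 CPM in cut tips and 241, 232 and 76.0 CPM in uncut tips, and AT5G60520, annotated as LEA-like, had 1.23 and 6.77 CPM in cut tips and 48.8, 42.9 and 57.7 CPM in uncut tips.

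No gene of the cell cycle lists passed. Of 21 mitotic genes tested (23 listed), 0 were called by edgeR in the first set and 0 by DESeq2 against all 3 uncut libraries, and the median log2 fold change was -0.71, with 18 of the 21 below 0. CYCB1;1, a mitotic cyclin, had 10.5 and 3.61 CPM in cut tips and 14.6, 13.8 and 23.2 CPM in uncut tips (-1.09 ± 0.58 SE, edgeR adjusted p = 0.323). Of 16 DNA replication genes, 0 were called and the median was -0.63. Outside these lists, some genes annotated to microtubules or as HMG-box proteins, picked after the values were seen, were called lower in the first set. They include 3xHMG-box1 (log2 fold change -2.15, edgeR adjusted p = 0.0026), 3xHMG-box2 (-2.08, 0.0071), the TPX2-family gene AT5G15510 (-2.44, 0.0181) and MAP65-4 (-1.77, 0.0462). Genes of these kinds that were not called were not counted, so nothing is read about them as a class. With 1 library left out, 3xHMG-box1 kept its call only without mock uncut replicate 1 or 2. 3xHMG-box2 kept its call only without mock uncut replicate 2, and AT5G15510 only without mock uncut replicate 1. MAP65-4 lost its call in each of these fits. The 13 phenylpropanoid and flavonoid genes tested also had 0 calls, with all 13 log2 fold changes above 0 and a median of 0.56. Their summed level was 5999.5 and 5057.5 CPM in cut tips and 3456.5, 3249.5 and 657.6 CPM in uncut tips. LHY, a morning gene of the circadian clock, had 1.23 and 2.26 CPM in cut tips and 1.52, 0.923 and 1.61 CPM in uncut tips, and 0 of 11 clock genes tested were called. RBCS1A, a subunit of Rubisco that marks green tissue, had 39.4 and 81.7 CPM in cut tips and 91.3, 37.8 and 0 CPM in uncut tips.

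The 3 h libraries show where the 6 h levels stand in time. The 3 h and 6 h comparisons share the mock uncut libraries, so their values are given side by side, in the order uncut, 3 h and 6 h. KIN2 had 61.5 to 216 CPM uncut, 1317 to 1872 CPM at 3 h and 3145 to 3159 CPM at 6 h. HVA22D had 39.0 to 41.5 CPM uncut, 672 to 1042 CPM at 3 h and 98.5 to 135 CPM at 6 h. LTI30 had 17.7 to 65.5 CPM uncut, 458 to 816 CPM at 3 h and 211 to 262 CPM at 6 h. TCH3 had 2.58 to 31.5 CPM uncut, 211 to 313 CPM at 3 h and 117 to 145 CPM at 6 h. PLT1 had 22.1 to 34.9 CPM uncut, 0 to 3.62 CPM at 3 h and 0.616 to 0.903 CPM at 6 h. YUC3 had 13.4 to 37.9 CPM uncut, 0 to 3.90 CPM at 3 h and 0 to 0.452 CPM at 6 h. WOX5 had 0.462 to 2.90 CPM uncut, 13.3 to 27.2 CPM at 3 h and 4.52 to 6.16 CPM at 6 h. By these levels KIN2 was highest at 6 h, HVA22D, LTI30, TCH3 and WOX5 were highest at 3 h, and PLT1 and YUC3 were near 0 at both times. The 3 h libraries are all of the second set and the 6 h libraries all of the first, so an order of levels cannot be told apart from the set. In a fit with a term for the set of columns, without L-Kyn cut 3 h replicate 2, the response at 6 h was higher than that at 3 h for 29 genes (0.171%) and lower for 121 (0.715%) of 16934 tested, 0.886% in both directions (edgeR adjusted p under 0.05). HVA22D (6 h minus 3 h, log2 -2.96 ± 0.63 SE, edgeR adjusted p = 0.026), LTI30 (-3.28 ± 0.69 SE, 0.0245) and TCH3 (-4.29 ± 0.91 SE, 0.0258) were among the lower ones. For KIN2 and WOX5 the difference with this term had the opposite sign to the order of the levels and did not pass. It was -0.54 ± 0.52 (SE, edgeR adjusted p = 0.6235) for KIN2 and 0.26 ± 1.03 (SE, edgeR adjusted p = 0.927) for WOX5. The term is set by mock uncut replicate 3 against replicates 1 and 2 alone, so it carries any deviation of that library. The count in both directions was 150. It was 25 and 17 with mock cut 6 h replicate 1 or 2 left out, 32 and 60 with mock uncut replicate 1 or 2 left out, and 701 and 367 with mock cut 3 h replicate 1 or 3 left out.

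**Figure D4:**
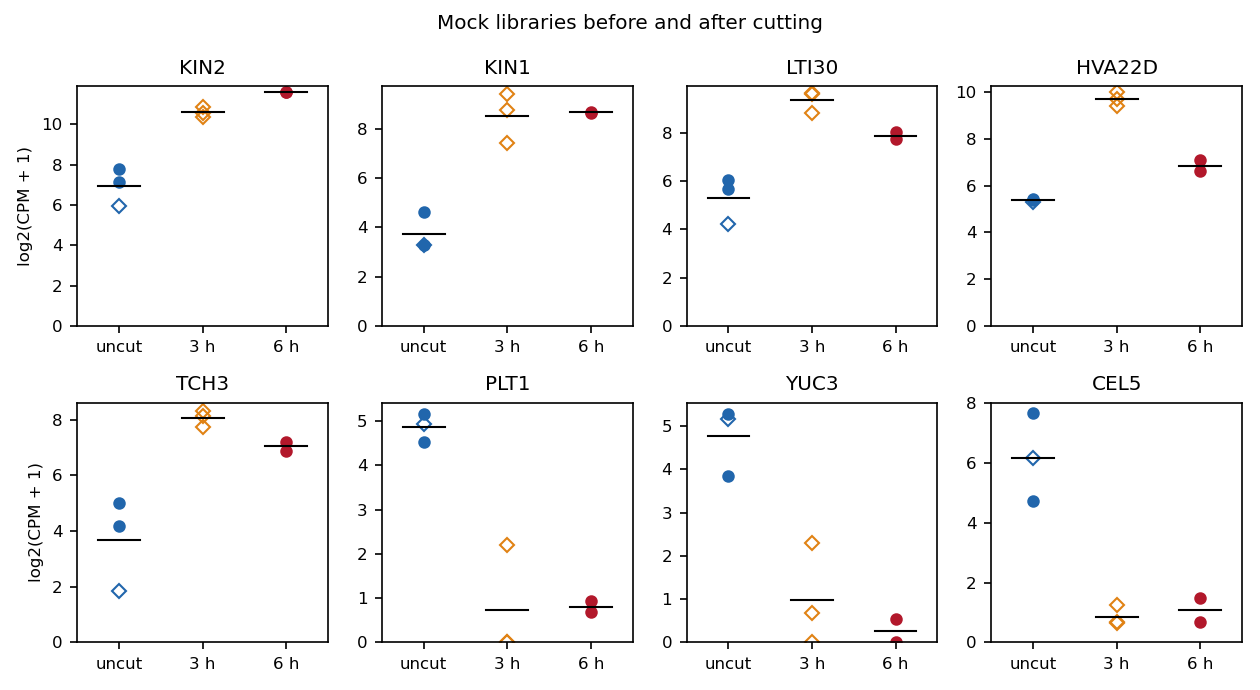
Levels of 8 genes as log2(CPM + 1) in mock tips uncut, 3 h and 6 h after cutting, 1 point per library with black bars at the mean. Filled points are libraries of the first set and open diamonds those of the second set. The level of KIN2 is highest at 6 h, although its response with the term for the set differed by -0.54 (log2, 6 h minus 3 h) and did not pass, HVA22D, LTI30 and TCH3 are lower at 6 h than at 3 h, and PLT1, YUC3 and CEL5 are near 0 at both times.

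The L-Kyn libraries at 6 h give the same comparison in tips with the inhibitor, with no library shared with the mock comparison, though in the same fit and set of columns. L-Kyn cut tips differed from L-Kyn uncut tips in 1766 of 14764 genes (12% of the genes), 950 higher (6.43%) and 816 lower (5.53%). All 217 genes called in mock had the same sign there, against 68.5% of all genes tested. Of the 217, 171 were called in the same direction with L-Kyn, 62 of the 74 higher and 109 of the 143 lower, which is 78.8% of the mock calls and 9.68% of the L-Kyn calls. The 74 genes had a median log2 fold change of 2.19 in mock and 2.42 with L-Kyn, and the 143 genes of -1.96 in mock and -1.72 with L-Kyn. Over all genes tested Pearson's r between the 2 contrasts was 0.63 and Spearman's rho 0.55, as a description across 14764 genes that share libraries. KIN2 had 1850, 2178 and 2286 CPM in L-Kyn cut tips and 59.4 and 42.8 CPM in L-Kyn uncut tips. PLT1 had 0.478, 1.53 and 0.480 CPM in L-Kyn cut tips and 34.1 and 32.8 CPM in L-Kyn uncut tips. YUC3 had 0.957, 1.53 and 1.44 CPM in L-Kyn cut tips and 24 and 35.1 CPM in L-Kyn uncut tips. Some lists without calls in mock had calls there, with 16 of 21 mitotic genes lower (median log2 fold change -1.96) and 11 of 13 phenylpropanoid and flavonoid genes higher (median 1.41). No member of either list differed between mock and L-Kyn by the test of the difference. That test called 1 gene in all (0.00677% of the genes), TI1, with 1021 genes at an unadjusted p under 0.05 and 9 called by DESeq2.

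**Figure D5:**
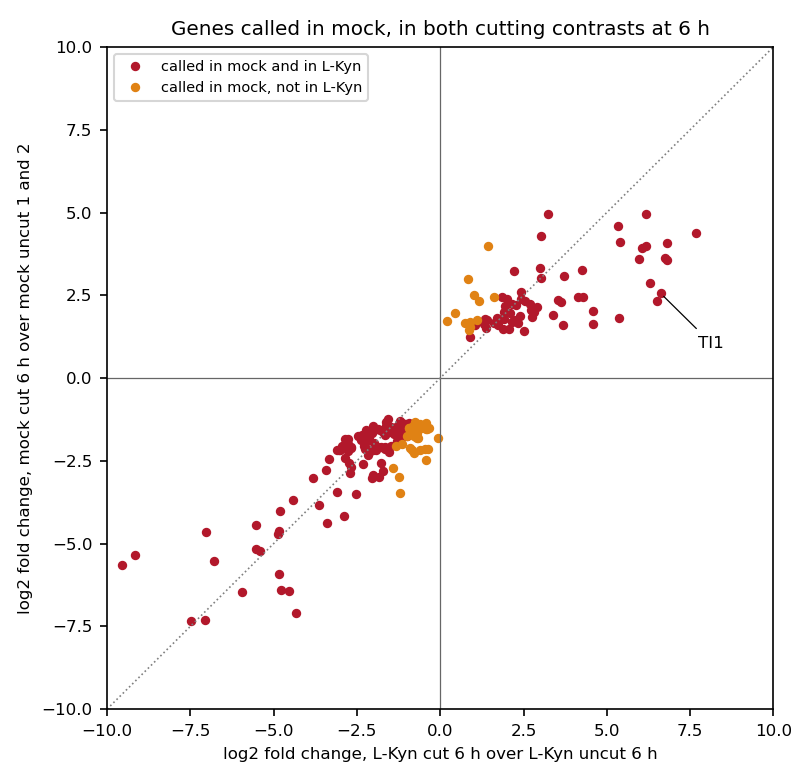
Log2 fold change of the 217 genes called in mock, mock cut 6 h over mock uncut replicates 1 and 2 on the vertical axis and L-Kyn cut 6 h over L-Kyn uncut 6 h on the horizontal axis. Red points were called in both and orange points in mock alone, and the dotted line marks equal change. All points lie in the lower left or upper right of the plot, and TI1 lies far to the right of the line.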

How the data were processed

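Root tips were profiled by 3′ RNA sequencing, which reads transcript ends. The authors deposited raw counts per locus, not normalised. The submitters' processing notes name Bowtie2, HTSeq, DESeq2 and, as genome build, TAIR10, with no tool version given in the sources used here. Rows that name no gene (71.1% to 86% of the table total in the 5 mock libraries) were left out. A floor of 3 counts is 0.91 to 1.85 CPM in these libraries; floors and counting intervals (95%, exact) cover counting error only.

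Counts were fitted in R 4.3.3 with edgeR 4.0.16 (TMM factors, its expression filter by group, quasi-likelihood test, Benjamini-Hochberg adjusted p under 0.05), beside DESeq2 1.42.0 and limma 3.58.1. Fits took all 18 libraries, the 9 of the first set (the first 9 columns), or 17 with a term for the set. In each fit that leaves 1 library in a group, that library is assumed to vary like the others. Symbols came from RefSeq (TAIR10.1), in which 21793 of 22093 loci were found. Figures used Python 3.11.15 and matplotlib 3.10.9. On simulated counts for the first-set comparison (14364 genes), the test called 20% of 50 genes changed 2-fold, 84% of 50 changed 4-fold and 98% of 50 changed 8-fold, with 13 false calls among 163. The changed genes all had a mean of at least 10 CPM and were changed in mock cut 6 h tips alone. These shares therefore do not cover genes of lower level.

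For L-Kyn uncut 6 h replicate 1 the source field reads cut, against its title, and the title was followed. L-Kyn cut 3 h replicate 2 was left out of the 3 h fit because earlier results placed its values near those of uncut tips. Comparisons, members and gene lists were chosen with earlier results of these data known. Named genes were, from the first-set fit, the 12 higher and 12 lower called genes of largest fold with at least 10 CPM, a symbol and no overlap with the 3 uncut libraries, up to 4 called members of each list, genes called by DESeq2, a panel of niche, auxin and wound genes, and the 10 genes of highest level. Genes without a symbol, and groups by annotation, were chosen after their values were seen, and not every gene the rule takes is printed. A result on 1 listed gene is not reported here.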

Additional observations from a re-analysis of the deposited data

Results flagged for a closer look

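The cutting response of TI1 differed between mock and L-Kyn tips at 6 h. TI1 had 106 and 84.5 CPM in mock cut tips and 13.0 and 18.9 CPM in mock uncut replicates 1 and 2, a log2 fold change of 2.55. It had 182, 207 and 127 CPM in L-Kyn cut tips and 2.36 and 1.15 CPM in L-Kyn uncut tips, a log2 fold change of 6.62. The difference of -4.07 ± 0.58 (SE) had an edgeR adjusted p of 0.0358. The call was lost when any of the 4 mock libraries or L-Kyn uncut 6 h replicate 2 was left out.

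The response to cutting in mock tips was lower at 6 h than at 3 h for 121 genes and higher for 29. Of the listed genes, those lower at 6 h by this test and lower in level in both 6 h libraries than in all 3 h libraries were HVA22D (-2.96 on the log2 scale), LTI30 (-3.28), TCH3 (-4.29), LTI78 (-9.30), ERD10 (-3.80), COR413-PM1 (-2.17) and DOF2.4 (-4.13). The higher ones, all with both 6 h libraries above all 3 h libraries, were CYCB1;3 (3.27), CYCB1;4 (3.3), CYCB2;2 (3.80), CYP79B2 (4.06) and CYP83B1 (5.08), mitotic cyclins and enzymes of indole glucosinolate synthesis. CYCB2;2 had 13.0, 15.2 and 26.4 CPM in uncut tips, 1.84, 1.21 and 1.11 CPM at 3 h and 11.1 and 10.8 CPM at 6 h. CYP83B1 had 19.4, 13.8 and 76.7 CPM in uncut tips, 2.76, 6.64 and 8.36 CPM at 3 h and 41.9 and 46.5 CPM at 6 h. GSTU5 (-6.90) and the flavonoid and phenylpropanoid genes CHI (-4.20), F3H (-2.98), FLS1 (-3.65), CAD5 (-8.16) and TT7 (-7.66) were also lower by the test. Their levels in mock uncut replicate 3, on which the term for the set rests, were 0.322, 2.90, 136, 24.2, 0 and 0 CPM, against 22.7, 58.5, 924, 451, 17 and 20.3 CPM in replicate 1. The term acts on every value of this paragraph, so none is a plain ratio of the 6 h and 3 h levels. TCH3 had 31.5, 17.1 and 2.58 CPM in mock uncut replicates 1, 2 and 3, with means of 268.9 CPM at 3 h and 131.4 CPM at 6 h. LTI78 had means of 107.9 CPM at 3 h and 9.03 CPM at 6 h. The uncut levels of HVA22D were nearly equal, at 40.3, 41.5 and 39.0 CPM. The part of mock uncut replicate 3 in any of these values was not tested.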

How the results depend on the processing

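Without mock uncut replicate 3 the fit for 6 h minus 3 h is not estimable and was not run. The comparison with all 3 uncut libraries gave 0 calls by edgeR, but 34 by DESeq2, 3 with no filter, 1 with the set as a term, 93 with that term and without L-Kyn cut 3 h replicate 2, 55 without that library alone, and 0 to 1 when a mock library was left out. Of the 55 and 93 genes, 52 and 91 were among the 217 of the first set. The 217 were 493 by DESeq2, 574 with no filter, 1160 with only the groups compared and 137 without L-Kyn uncut 6 h replicate 1, and 25 to 67 when a mock library was left out. The difference between mock and L-Kyn gave 1 gene, 9 by DESeq2, 8 with no filter, 4 without L-Kyn uncut 6 h replicate 1 and 0 to 4 when a library was left out. The 6 h minus 3 h count of 150 was 455 by DESeq2, 313 with no filter, 12 with all 18 libraries, and 17 to 701 when a mock library was left out. Of the 34 genes by DESeq2 against all 3 uncut libraries, 25 were among the 217 of the first set. Of the 493 by DESeq2 in the first set, 190 were among the 217. The 34 include CASP1, which had 0 and 39.7 CPM in the cut libraries. The cause of the differences between settings was not tested. With the replicate number as a block the counts were 0 against all 3 uncut libraries, 184 in the first set, 2 for mock minus L-Kyn and 40 for 6 h minus 3 h. Deviations of same-numbered mock cut 6 h and mock uncut libraries, replicates 1 and 2, had a correlation of -0.013 over 9754 genes. The other groups were not checked in this way, so whether the replicate numbers mark anything shared cannot be told.

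Directions turned for TAA1, RBCS1A, LHY, CASP1 and SCR. Against 3 uncut libraries TAA1 was -0.22 and RBCS1A -0.09 (log2) with the set as a term, -0.26 and -0.13 with it and without L-Kyn cut 3 h replicate 2, and leaving out a mock library gave ranges of -0.23 to 0.51 for TAA1, -0.13 to 1.72 for RBCS1A, -0.16 to 0.66 for LHY and -1.93 to 8.82 for CASP1. In the first set RBCS1A was 0.02 with the replicate block, and leaving out a library gave ranges of -0.72 to 0.68 for RBCS1A, -0.87 to 0.79 for SCR and -0.58 to 0.17 for TAA1. Of the list medians under other settings, 560 lay within 1 SD of the value given and 90 did not. That SD is of the list's median log2(CPM + 1) among libraries, pooled over mock cut 6 h and mock uncut tips. It takes in mock uncut replicate 3, also for the medians of the first set. Reads on genes limit what genes under about 10 CPM can show.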
